A study of Danio rerio with 8 samples.

Results

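The genes described here make, activate, store and import polyunsaturated fatty acids, the long unsaturated chains from which lipid mediators are built. They were followed in RNA sequencing libraries of zebrafish embryos, 4 kept as controls (numbered 1 to 4) and 4 exposed to 7,17-diHDPAn-3 (5 to 8), a dihydroxylated product of the omega-3 docosapentaenoic acid. Members were chosen by name: any row of the gene count table whose symbol was fads2, elovl2, elovl4a, elovl4b, elovl5, acsl4a, LPCAT3, mfsd2aa or mfsd2ab, or the human-style form without the final a or b. Of 9 names 8 matched, giving 9 rows of the 32020 in the table, and fads2 matched none. The table writes ELOVL4, ACSL4 and MFSD2A on a pair of rows each, so the a and b copies cannot be told apart by name and are given by Ensembl ID. Both ACSL4 rows are included although only the a copy was asked for.

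Per the labels, the source was embryo and the cell type red cells with their progenitors, and no sort is described. The string gata_1, unexplained, is part of each library name. The name of control 4 alone also holds 2b, and whether that ties it to control 2 is not stated. The 2 libraries differed beyond sampling noise (chi-square over degrees of freedom of 7.99). So did every other pair within a group (7.56 to 18.4 over all pairs), so this value cannot show whether the 2 are tied. With control 2 or control 4 left out 0 members were called. As 0 were called with all 8 libraries too, this cannot bear on a tie either. The series text lists the AB wild-type strain and the lines Tg(gata1: Dsred) and Tg(CD41:GFP), and does not say which gave these embryos. It describes a screen of omega-3 metabolites at 1.5 µM from 11 to 36 hours after fertilization and a dose search between 1 and 1.75 µM with ethanol as the solvent. For these 8 libraries the sources used here state neither the dose, the hours and the control medium nor the number of embryos in each.

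Long polyunsaturated chains arise from shorter dietary or yolk fatty acids by alternating steps. A front-end desaturase, in zebrafish Fads2, inserts double bonds close to the carboxyl end, and elongases of the Elovl family add carbons in pairs. The chains are then activated as acyl-CoA esters, placed into membrane phospholipids by lysophospholipid acyltransferases, and carried between cells partly as lysophosphatidylcholine, the cargo of the transporter Mfsd2a. Docosahexaenoic acid made and moved along this route is abundant in the membranes of brain and retina.

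Totals ran from 2502636 to 4794081 counts a library. The libraries were not pure red cells. Summed over fixed marker lists, red cell genes reached 3098 to 7081 CPM among controls and 2906 to 7262 CPM among treated libraries, epidermal genes 5468 to 11087 and 7303 to 9573 CPM, neural genes 2008 to 2207 and 1948 to 2122 CPM, and muscle genes 1682 to 15010 and 9260 to 20859 CPM. Endothelial genes reached 79.0 to 139.0 CPM among controls and 139.1 to 242.8 CPM among treated libraries, and pigment cell genes 97.7 to 151.7 and 192.7 to 361.8 CPM. In both of these lists the groups lay apart, for endothelial genes by a very small margin between control 3 and treated 5. Of 12 endothelial rows 11 had a higher mean in the treated group and tek a lower one, and TIE1, stab2 and MRC1 lay above every control in all treated libraries. Over all tested genes 2.34% lay apart in that direction. Without stab2 and MRC1, picked after their values had been seen, the endothelial sum was 110.0 CPM in control 3 and 96.0 CPM in treated 5, so the groups overlapped. Among pigment cell rows DCT, TYR, both TYRP1 rows, pmela, pmelb and SLC24A5 also lay above every control in all treated libraries. OCA2, SLC45A2 and both MITF rows overlapped. Lens genes reached 15.2 to 89.8 CPM among controls and 73.7 to 143.9 CPM among treated libraries, and genes of the yolk syncytial layer and liver 90.3 to 181.9 CPM in 3 controls, 538.0 CPM in control 3 and 94.1 to 149.2 CPM among treated libraries. CPM is the count of a gene relative to a fixed total, scaled by TMM. These values compare 1 gene between libraries, not genes with each other, because transcript lengths were not used. In such mixed samples, fewer cells of a type and less RNA per cell cannot be told apart.

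None of the members passed the test between groups. Of the 9 rows 7 had enough counts to be tested, and edgeR's quasi-likelihood test across 14249 genes called 0 of them at an adjusted p of at most 0.05, with adjusted p from 0.711 to 0.975. The background share of called genes was 0%. DESeq2 called 18 of the 14249 genes, 0.126%, and gave no adjusted p for 5526 of the 14249. It called 0 members and gave no adjusted p for 3 of the members, and limma-voom called 0 members. Before adjustment, at a p of at most 0.05, edgeR had 1 of 7 members, a MFSD2A row with lower treated values, against 6.93% of all genes in either direction and 3.3% with lower treated values. DESeq2 had 1 member at that unadjusted level and limma-voom 2. Fitted values were lower in treated libraries for 4 members and higher for 3, beside 50.5% lower over all genes. The median log2 fold change (treated over control) was -0.13 for the 7 members and -0.004 for all genes. The member median was -0.27 without treated 7, -0.32 without treated 8, -0.085 without control 4 and -0.079 without treated 6, and 6 members were lower and 1 higher without control 3 or without treated 8. The 2 groups overlapped in all 9 rows, of which 2 were not tested. Most genes overlapped as well, since the groups lay apart in only 4.62% of all tested genes, with controls on top in 2.29% and treated libraries on top in 2.34%.

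**Figure D1:**
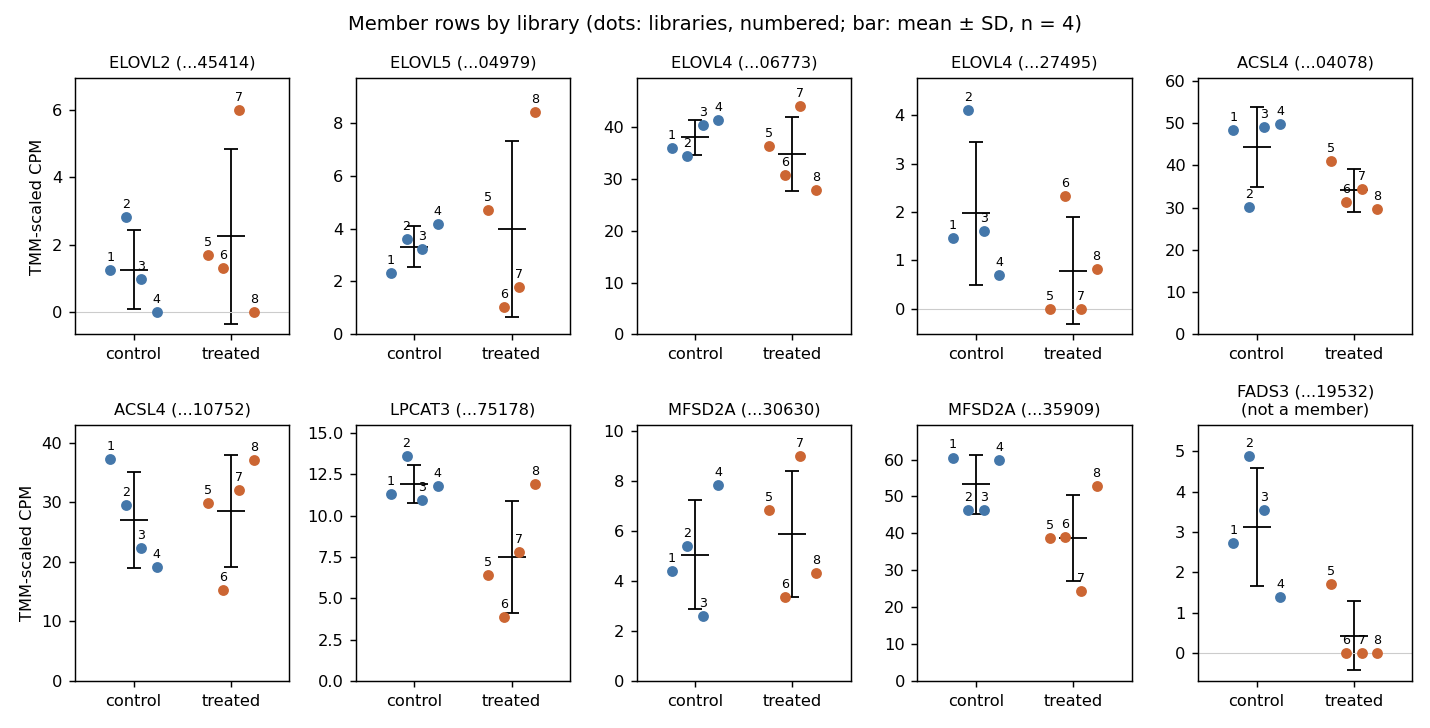
TMM-scaled CPM of each member row, and of the row named FADS3, in the 4 control and 4 treated libraries, with each dot a library labelled by its number and the bar the mean ± SD (n = 4). The groups overlap in every panel, and 3 of 4 treated libraries lie under all controls for LPCAT3, for the MFSD2A row ENSDARG00000035909 and for FADS3. The share of all genes with that pattern was not counted.

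Among the enzymes that lengthen the chains, ELOVL2 and ELOVL5 were near the limit of what these libraries could measure. Elovl2 extends the longest precursors of docosahexaenoic acid and Elovl5 acts on shorter ones, with overlapping substrates. ELOVL2 had 6, 11, 3 and 0 counts in controls 1 to 4 and 4, 5, 20 and 0 in treated 5 to 8, or 20 and 29 counts in all, and was not tested. Treated 7 alone held 20 of them, at 6.0 CPM, while control 4 and treated 8 had none. A count of 0 there allows up to 3 counts, or 0.687 CPM in control 4 and 0.807 CPM in treated 8.

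ELOVL5 passed the filter on low counts. Its CPM was 2.31, 3.59, 3.23 and 4.16 in controls 1 to 4 and 4.69, 1.04, 1.8 and 8.40 in treated 5 to 8. Treated libraries lay on both sides of all controls, 2 below and 2 above, and their coefficient of variation was 83.9% against 23.4% in controls. Its log2 fold change was 0.26 ± 0.65 (SE, edgeR adjusted p = 0.961), with a 95% interval of -1.12 to 1.63. The sign turned without treated 8, to -0.45, and in limma-voom, to -0.18. Over the 8 libraries ELOVL5 had a Pearson r of -0.61 with the neural marker sum, and the part of neural content in it was not tested. The marker sums named beside members here and below were mostly picked for the size of r. Of 63 pairs of a tested member and a marker list, 5 had an r of size 0.6 or more.

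ELOVL4 makes the very long chains beyond those of the other elongases and is known for its part in photoreceptors, where dominant truncating mutations cause a human macular dystrophy. The row ENSDARG00000006773 stood at 36.0, 34.4, 40.3 and 41.3 CPM in controls 1 to 4 and at 36.3, 30.8, 44.1 and 27.9 CPM in treated 5 to 8. The treated range enclosed that of the controls. edgeR fitted a log2 fold change of -0.13 ± 0.18 (SE, edgeR adjusted p = 0.925), the narrowest interval of the members, from -0.52 to 0.26. Over the 8 libraries this row had a Pearson r of -0.58 with the lens marker sum and -0.53 with both the pigment and the epidermal one. The part of such content in its values was not tested. The other row, ENSDARG00000027495, had 7, 16, 5 and 3 counts in controls against 0, 9, 0 and 3 after exposure, too few for the test. Its 31 counts in controls and 12 in treated libraries overlapped between groups, and without a filter on low counts its log2 fold change was -1.24 ± 1.40 (SE, edgeR adjusted p = 0.867).

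No row was named fads2. The zebrafish RefSeq gene table lists fads2 and fads6 and neither fads1 nor fads3, while the name table used for the count rows has a FADS3 (ENSDARG00000019532) and a FADS6 and no fads2. These tables do not settle whether the FADS3 row counts the reads of zebrafish fads2, so it is given apart from the members, and it was picked after its values had been seen. FADS3 had 13, 19, 11 and 6 counts in controls 1 to 4 and 4, 0, 0 and 0 in treated 5 to 8. In CPM this was 2.72, 4.88, 3.55 and 1.39 against 1.71, 0, 0 and 0, where a count of 0 allows up to 0.772, 0.894 and 0.807 CPM in treated 6, 7 and 8. All treated libraries lay below the control mean and 3 of 4 below every control, with treated 5 above control 4. The row was under the filter on low counts. Without that filter its log2 fold change was -3.01 ± 1.37 (SE, unadjusted p = 0.0338, edgeR adjusted p = 0.708 over the rows then tested). FADS6 had 10 counts in controls and 6 in treated libraries, with 0 in 5 of 8 libraries.

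ACSL4 activates arachidonic acid and related chains by joining them to coenzyme A. The row ENSDARG00000004078 stood at 48.4, 30.0, 49.0 and 49.6 CPM in controls 1 to 4 and at 41.0, 31.3, 34.5 and 29.5 CPM in treated 5 to 8. Control 2 lay far under the other 3 controls, inside the treated range, and every treated library lay below the control mean. The fitted log2 fold change was -0.38 ± 0.19 (SE, edgeR adjusted p = 0.739, unadjusted p = 0.0667), with a 95% interval of -0.80 to 0.03. Without control 2 it was -0.53 (unadjusted p = 0.00983, edgeR adjusted p = 0.778), and without control 4 it was -0.32. The log2 CPM of this row had a Pearson r of -0.82 with the log2 lens marker sum and -0.71 with the epidermal one over the 8 libraries, the former being the lowest of all pairs of a tested member and a marker list. With the red cell marker sum the row had 0.545, the highest of all those pairs. The part of lens, epidermal or red cell content in its values was not tested.

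The other ACSL4 row, ENSDARG00000010752, did not follow the first. Its CPM was 37.3, 29.5, 22.3 and 19.2 in controls and 29.9, 15.3, 32.1 and 37.1 in treated libraries, so that the groups covered nearly the same range. The log2 fold change was 0.07 ± 0.27 (SE, edgeR adjusted p = 0.975), but with control 3, control 4 or treated 8 left out it was -0.007, -0.06 or -0.09. Over the 8 libraries the log2 CPM of the 2 ACSL4 rows had a Pearson r of -0.12. Whether the 2 rows differ in their response was not tested.

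LPCAT3 places polyunsaturated chains, arachidonic acid above all, into membrane phospholipids, and had the lowest fold change of the 7 tested members. Its CPM was 11.3, 13.6, 11.0 and 11.8 in controls 1 to 4 and 6.40, 3.89, 7.79 and 11.9 in treated 5 to 8. The controls lay close together, 3 treated libraries lay under all of them, and treated 8 lay within their range. The counts behind these values were 34 to 54 in controls and 15, 15, 26 and 44 in treated libraries. Its log2 fold change was -0.66 ± 0.32 (SE, edgeR adjusted p = 0.730, unadjusted p = 0.0586), a fold of 0.633 with a 95% interval of -1.35 to 0.03 on the log2 scale. Without treated 8 it was -0.995 (unadjusted p = 0.00901, edgeR adjusted p = 0.832) and without treated 6 it was -0.43. Its Pearson r with the endothelial marker sum was -0.55 over the 8 libraries, and the part of endothelial content in it was not tested.

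MFSD2A carries lysophosphatidylcholine with docosahexaenoic acid across membranes and, in the mouse, is a gene of the endothelium of the blood-brain barrier. The row ENSDARG00000035909 had the smallest p of the 7 tested members. It stood at 60.6, 46.4, 46.4 and 59.8 CPM in controls 1 to 4 and at 38.8, 39.1, 24.3 and 52.8 CPM in treated 5 to 8. Treated 5, 6 and 7 lay under all controls, and treated 8 lay between the lower and the higher pair of controls. edgeR fitted a log2 fold change of -0.46 ± 0.21 (SE, unadjusted p = 0.0434, edgeR adjusted p = 0.711), a fold of 0.727 with a 95% interval of -0.90 to -0.02 on the log2 scale. It was -0.65 without treated 8 and -0.29 without treated 7. The unadjusted p exceeded 0.05 without control 1, control 4, treated 5, treated 6 or treated 7 (0.107, 0.106, 0.0725, 0.0655 and 0.136), with non-robust dispersion (0.0503) and with 1 surrogate variable (0.062).

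The other MFSD2A row, ENSDARG00000030630, had 8 to 34 counts a library. Its CPM was 4.40, 5.39, 2.58 and 7.85 in controls and 6.83, 3.37, 8.99 and 4.34 in treated libraries, with overlap throughout. The fitted log2 fold change was 0.19 ± 0.44 (SE, edgeR adjusted p = 0.958), and it was -0.01 without control 3 and -0.11 without treated 7. Its log2 CPM had a Pearson r of -0.35 with the other MFSD2A row over the 8 libraries, the lowest of the 21 pairs of tested members. Treated 7 was the lowest of all libraries for ENSDARG00000035909 and the highest for ENSDARG00000030630. The endothelial marker sum, higher in every treated library than in any control, had a Pearson r of -0.55 with ENSDARG00000035909 and -0.10 with ENSDARG00000030630, over libraries that share the group difference. The latter row had -0.62 with the sum of yolk and liver genes, which was highest in control 3, where the row was lowest. The part of endothelial or yolk content in the MFSD2A values was not tested.

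**Figure D2:**
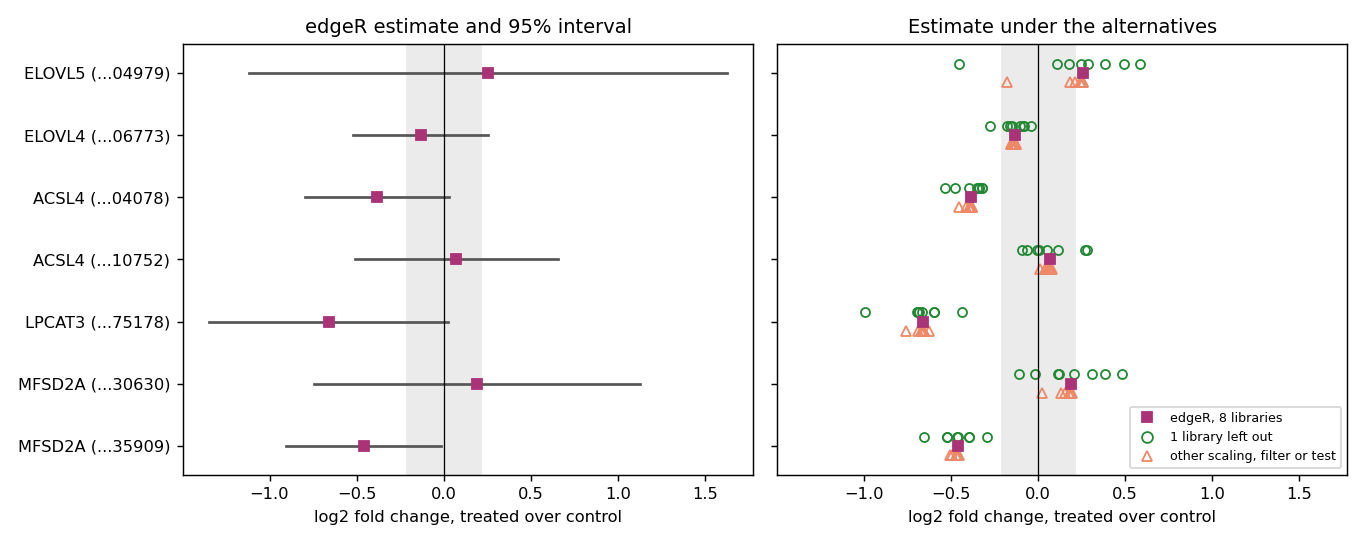
Log2 fold change (treated over control) of the 7 tested member rows, on the left with the edgeR 95% interval and on the right as estimated with 1 library left out (circles) or with another scaling, filter or test (triangles). The grey band holds the middle 50% of all tested genes, from -0.21 to 0.21, and the values of ELOVL5, of ACSL4 ENSDARG00000010752 and of MFSD2A ENSDARG00000030630 lie on both sides of 0.

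Agreement between members from library to library was weak for most pairs. Over the 21 pairs of tested rows the Pearson r of log2 CPM ran from -0.35 to 0.62, with a median of 0.14. The highest was between ACSL4 ENSDARG00000004078 and ELOVL4 ENSDARG00000006773, and LPCAT3 had 0.61 with ELOVL5 and 0.54 with MFSD2A ENSDARG00000035909. These 8 points share libraries, depth and the group difference and are a description only. Among 11424 named rows of at least 5 CPM, the 3 whose log2 CPM was most like that of MFSD2A ENSDARG00000035909 were ATP5PD, a subunit of mitochondrial ATP synthase, PIKFYVE, a lipid kinase of endosomes, and ELK1, a transcription factor, with a Pearson r of 0.96, 0.95 and 0.95 over 8 libraries. Their log2 fold changes were -0.22, -0.17 and -0.44, with edgeR adjusted p of 0.871, 0.863 and 0.738. As these rows were picked for the highest r among 11424 over 8 points, the size of r cannot show that they are related to MFSD2A.

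The rest of the pathway was read from 6 fixed lists, which held 103 rows beside the members, 75 of them tested. edgeR called 0 of these, as did limma-voom, with edgeR adjusted p from 0.563 to 0.998. DESeq2 also called 0, but gave no adjusted p for some of the rows, among them acbd5a, PLA2G7 and PLA2G15. Before adjustment, 6 rows with lower and 2 with higher treated values had a p of at most 0.05, 8% and 2.67% of the 75, beside a background of 3.3% and 3.63% over all genes. DESeq2 had 8 rows at that level and limma-voom 5 lower and 1 higher. The filter on low counts was rerun for each library left out. The counts and list medians given for such fits therefore cover 77 to 79 rows, some of them not among the 75. The 2 with higher values were 0 without control 1 and 3 without treated 6, and they were 1 without each other library. The 6 with lower values were 7 without control 1 or treated 5, 5 without control 2, and 4 without control 3 or treated 6. They were 6 without each other library. Fitted values were lower for 40 rows and higher for 35, with a median of -0.04. The groups lay apart in 2 of the 75 rows, 2.67%, beside 4.62% of all tested genes.

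**Figure D3:**
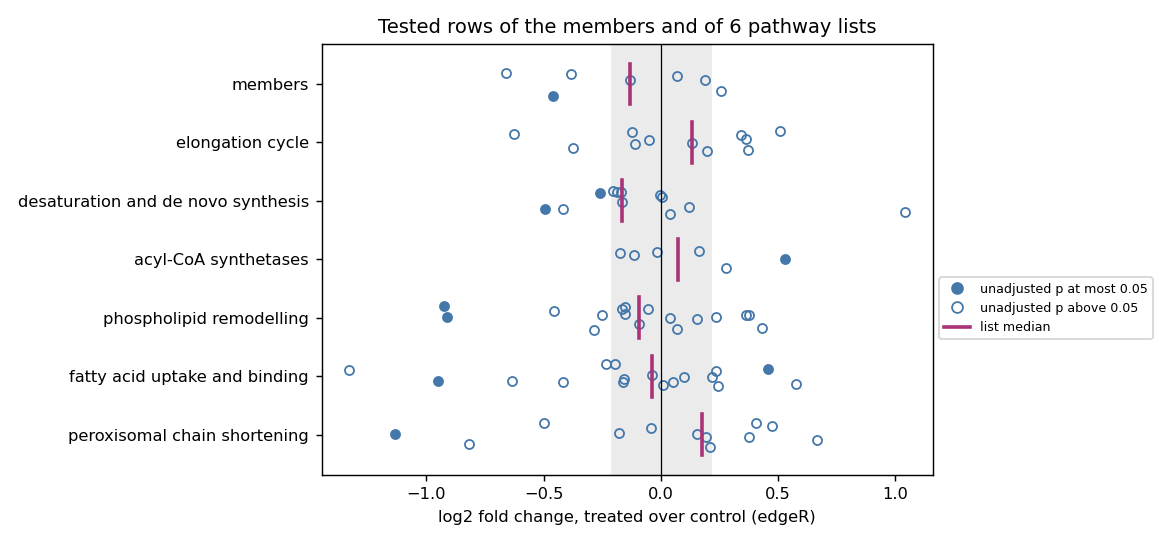
Log2 fold change (treated over control, edgeR) of each tested row of the members and of the 6 pathway lists, with filled dots for an unadjusted p of at most 0.05 and a vertical bar for the list median. Medians lie between -0.17 and 0.18, inside the grey band that holds the middle 50% of all tested genes. A median over several rows varies less than single genes do, so lying inside the band cannot show that a list is unchanged.

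Among the other elongases and the enzymes that complete each round of elongation, 6 of 11 tested rows had higher and 5 lower values, with a median of 0.13 that was -0.003 without treated 8. None had an unadjusted p of at most 0.05. The 2 rows of smallest p were ELOVL1 (ENSDARG00000103735), an elongase of saturated and monounsaturated chains, and ELOVL6, which extends palmitate. ELOVL1 averaged 12.3 ± 4.68 CPM in the control group and 7.88 ± 2.52 CPM in the treated group (mean ± SD over 4 libraries, with a log2 fold change of -0.63 ± 0.34 SE and edgeR adjusted p = 0.764), and ELOVL6 averaged 22.4 ± 3.44 and 17.5 ± 6.38 CPM (-0.37 ± 0.25 SE, edgeR adjusted p = 0.821). Without control 3, the highest library of ELOVL1 ENSDARG00000103735, the log2 fold change of that row was -0.42. A second ELOVL1 row (ENSDARG00000099960) had 0.36 ± 0.33 (SE).

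In the list of desaturases, fatty acid synthesis and its regulators, 8 of 12 tested rows were lower and 4 higher, with a median of -0.17, or -0.075, -0.094 and -0.11 with control 4, treated 5 or control 2 left out. insig1, the endoplasmic reticulum protein that holds SREBP factors back when sterols are plentiful and is itself their target, had 47.6, 48.5, 42.6 and 41.8 CPM among the controls and 39.2, 22.3, 33.0 and 34.1 CPM among the treated libraries. Every treated library lay below every control. Its log2 fold change was -0.50 ± 0.19 (SE, unadjusted p = 0.0174, edgeR adjusted p = 0.617, DESeq2 adjusted p = 0.399). srebf2, the SREBP factor of sterol and lipid uptake genes, stood at 191.9 ± 19.4 and 160.4 ± 18.2 CPM (SD, n = 4, -0.26 ± 0.12 SE, edgeR adjusted p = 0.714), with the groups overlapping.

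Of the other acyl-CoA synthetases 3 of 6 tested rows were higher and 3 lower, with a median of 0.07 that was -0.03 without treated 8. acsl2, of the same family as ACSL4, had 43.6, 57.2, 45.5 and 48.0 CPM among the controls and 84.9, 38.1, 92.6 and 66.4 CPM among the treated libraries. Treated 5, 7 and 8 lay above all controls and treated 6 below them. Its log2 fold change was 0.53 ± 0.23 (SE, unadjusted p = 0.0334, edgeR adjusted p = 0.670), and ran from 0.36 to 0.74 with 1 library left out. The unadjusted p was 0.0944 in limma-voom, and in edgeR 0.0791 with 1 surrogate variable and 0.142 without treated 7. ACSBG2 stood at 142.0 ± 10.6 and 126.1 ± 21.5 CPM (SD, n = 4, -0.17 ± 0.13 SE, edgeR adjusted p = 0.850), a log2 fold change that was -0.063 without treated 6.

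Of the enzymes that take chains out of and put them into phospholipids, 10 of 17 tested rows were lower and 7 higher, with a median of -0.09, or 0.02, 0.01 and 0.07 with control 1, control 3 or treated 7 left out. The rows of smallest p were both phospholipases. PLA2G7, which hydrolyses platelet-activating factor and oxidised phospholipids, stood at 10.9 ± 1.88 and 5.67 ± 2.25 CPM (SD, n = 4, -0.93 ± 0.33 SE, unadjusted p = 0.0131, edgeR adjusted p = 0.586), with 3 of 4 treated libraries under all controls. PLA2G15, the lysosomal phospholipase, stood at 12.1 ± 5.40 and 6.41 ± 1.37 CPM (-0.91 ± 0.35 SE, unadjusted p = 0.021, edgeR adjusted p = 0.629), with 2 treated libraries under all controls. Treated 7 was under control 4 only narrowly, at 5.996 against 6.002 CPM. Without control 3, the highest library at 18.7 CPM, the log2 fold change of PLA2G15 was -0.63.

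Of the genes for uptake and binding of fatty acids and lipoproteins, 9 of 17 tested rows were lower and 8 higher, with a median of -0.04 that ran from -0.15 to -0.008 with 1 library left out. ldlra, a receptor for low density lipoprotein and a target of SREBP, had the smallest p of all 6 lists. It stood at 9.85, 23.4, 14.8 and 19.2 CPM in controls 1 to 4 and at 6.83, 10.1, 9.89 and 7.59 CPM in treated 5 to 8. Every treated library lay below controls 2 to 4, and control 1 lay among them. Its log2 fold change was -0.95 ± 0.30 (SE, unadjusted p = 0.00564, edgeR adjusted p = 0.563, DESeq2 adjusted p = 0.294). fabp4a, a fatty acid binding protein, had 16.6, 24.4, 26.1 and 27.7 CPM among the controls and 30.7, 38.3, 28.8 and 31.7 CPM among the treated libraries. Each treated library lay above every control (0.46 ± 0.21 SE, edgeR adjusted p = 0.704), and the log2 fold change was 0.31 without control 1. The endothelial and pigment marker sums were also higher in every treated library than in any control. The part of such content in fabp4a was not tested. CD36, a fatty acid receptor, and MFSD2B, a relative of MFSD2A, had 0 counts in all 8 libraries. Of the rows with similar names, mfsd2al1 also had 0 counts. mfsd2al2 had 10 counts in controls and 0 in treated libraries, too few for the test.

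Of the peroxisomal genes, among which are the enzymes of the last chain-shortening step to docosahexaenoic acid, 7 of 12 tested rows were higher and 5 lower, with a median of 0.18. With treated 6 or treated 8 left out the median was -0.09 or -0.04, over the rows that passed the filter then. acbd5a, whose human counterpart binds very long chain acyl-CoA at the peroxisome, had 8.59, 6.67, 17.4 and 12.2 CPM among the controls and 7.68, 3.37, 4.50 and 5.15 CPM among the treated libraries. Its log2 fold change was -1.13 ± 0.37 (SE, unadjusted p = 0.00791, edgeR adjusted p = 0.563), and -0.85 without control 3. Control 3 was the highest library for acbd5a, for PLA2G15 and for ELOVL1 ENSDARG00000103735, and also for the sum of yolk and liver genes. The part of yolk or liver content in these rows was not tested. PEX5, the import receptor, stood at 16.1 ± 3.65 and 11.3 ± 4.04 CPM (SD, n = 4, -0.50 ± 0.28 SE, edgeR adjusted p = 0.774).

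**Figure D4:**
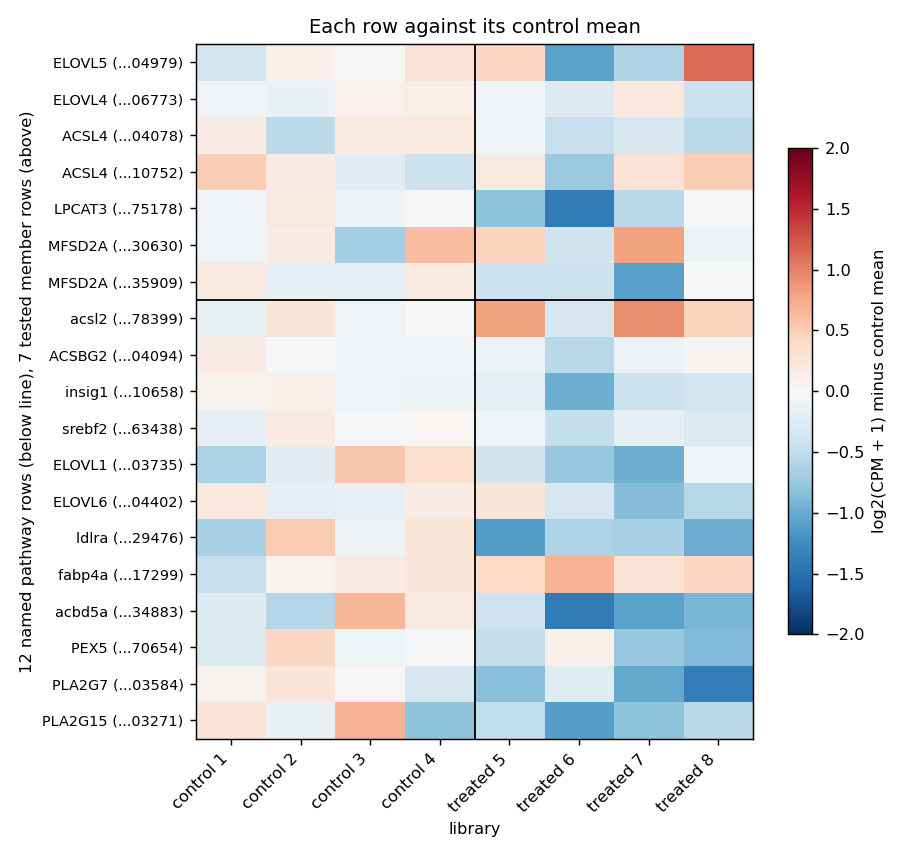
Colour shows log2(CPM + 1) of each library minus the control mean of that row, for the 7 tested members above the line and the 12 named pathway rows below it, with controls left and treated libraries right. insig1, srebf2, ELOVL1, ldlra, acbd5a, PLA2G7, PLA2G15 and the rows ACSL4 ENSDARG00000004078 and MFSD2A ENSDARG00000035909 lie below their control mean in all 4 treated libraries. Only fabp4a lies above its control mean in all 4, and the remaining rows lie on both sides. The 12 pathway rows were picked for a small p.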

How the data were processed

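The file deposited by the authors holds raw counts, a row for each Ensembl gene ID and a column for each library. HISAT2 2.1.0, StringTie 1.3.3b, Trim Galore 0.5.0, CASAVA 1.8.2, the build GRCz11 and DESeq2 1.22.1 are named in the submitters' processing notes, without roles. Annotation release, strand setting and counting step were not given in the sources used here, so reads shared by paralogs (the paired ELOVL4, ACSL4 and MFSD2A rows, whose sequences were not compared) or with antisense genes may be misassigned. Per the labels' protocols, libraries were stranded total RNA with probes against mammalian ribosomal cDNA. 0 sample columns were left out.

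Symbols came from the supplied name table (28975 of 32020 rows matched). RefSeq names are from GRCz12tu, so no coordinates are given. Counts were filtered with filterByExpr (14249 rows left), TMM-scaled and tested with the quasi-likelihood F-test of edgeR 4.0.16 in R 4.3.3, dispersion being estimated robustly, with Benjamini-Hochberg adjustment over all tested rows. Standard errors are the log2 fold change over the root of F. Log2 CPM for correlations used a prior count of 2. Alternatives were DESeq2 1.42.0, limma-voom (limma 3.58.1), other scalings and filters, non-robust dispersion, 1 surrogate variable (sva 3.50.0) and each library left out. Figures used matplotlib 3.10.9. The steps were also run on simulated counts. The outcome of that run is not given, and no result here rests on it. Within groups, the chi-square over genes divided by its degrees of freedom was 7.56 to 18.4, so no pair of libraries agreed within sampling noise.

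Named genes are every member row, the 2 rows of smallest p of at least 5 CPM in each list and the 3 rows most like the member of smallest p. Of 111 list entries 7 matched no row, and a name without its paralog suffix was accepted. FADS3, FADS6, CD36, MFSD2B, mfsd2al1, mfsd2al2, the second ELOVL1 row and the marker rows were named outside that rule. The members and lists were chosen with earlier results of these data known. The labels do not tie libraries to separate clutches. The p-values therefore refer only to the spread among these 8 samples, and that spread may be technical. Limits for a count of 0 cover counting error only.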

Additional observations from a re-analysis of the deposited data

Results flagged for a closer look

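The ACSL4 row ENSDARG00000004078 stood at 30.0 CPM in control 2 and at 48.4 to 49.6 CPM in the other 3 controls (a gap that took up a share of 0.937 of the range of its group). The row named FADS3 stood at 1.71 CPM in treated 5 and at 0 in the other 3 treated libraries, where the value in treated 5 comes from 4 counts. The threshold for such a gap is passed by chance in about 1 group in 20, and 20 groups were looked at, 2 for each of the 9 members and for FADS3. That rate does not apply to FADS3, where 3 libraries are tied at 0.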

How the results depend on the processing

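The count of called members and of called pathway genes was 0 under all 17 alternatives. In DESeq2, rows without an adjusted p were counted as not called. Over all genes the count was 0 in edgeR, 4 without a filter on low counts, 2 with a filter of 5 CPM in 4 libraries, 18 in DESeq2, 2 with 1 surrogate variable and 0 to 1 with 1 library left out. LPCAT3, MFSD2A ENSDARG00000035909, ACSL4 ENSDARG00000004078 and ELOVL4 ENSDARG00000006773 had lower treated values in every alternative. The 12 named pathway rows and the 3 rows most like MFSD2A did not change sign in any, but with 1 library left out the log2 fold change ran from -0.26 to -0.063 for ACSBG2, from -0.62 to -0.23 for ELOVL6, from -0.79 to -0.34 for PEX5, from -0.33 to -0.13 for ATP5PD and from -0.24 to -0.11 for PIKFYVE. The unadjusted edgeR p then reached 0.142 for acsl2, 0.138 for srebf2, 0.136 for fabp4a, 0.0996 for PLA2G15 and 0.0569 for insig1. It reached 0.04335 for PLA2G7, 0.0426 for acbd5a and 0.0288 for ldlra.

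With 1 library left out, the log2 fold change ran from -0.45 to 0.58 for ELOVL5, from -0.11 to 0.49 for MFSD2A ENSDARG00000030630, from -0.089 to 0.28 for ACSL4 ENSDARG00000010752, from -0.53 to -0.32 for ACSL4 ENSDARG00000004078, from -0.27 to -0.04 for ELOVL4, from -0.995 to -0.43 for LPCAT3 and from -0.65 to -0.29 for MFSD2A ENSDARG00000035909. limma-voom turned ELOVL5 to -0.18. With 1 library left out, medians ran from -0.32 to -0.079 for the members, from -0.18 to -0.075 for desaturation and synthesis, from -0.031 to 0.16 for acyl-CoA synthetases, from -0.0034 to 0.23 for elongation, from -0.091 to 0.15 for peroxisomal genes and from -0.20 to 0.066 for phospholipid remodelling. Without a filter on low counts the medians of elongation and of uptake were -0.061 and 0.028, and in limma-voom that of phospholipid remodelling was 0.0044. The filter was rerun with each library left out, so the list medians do not cover the same rows throughout. They cover 77 to 79 list rows with 1 library left out and 94 without a filter, against 75 in edgeR with all 8 libraries. ELOVL5 had no value with the filter of 5 CPM. The cause of these turns was not tested. No paired analysis was possible because the groups share no replicate numbers. The rows of ELOVL2, FADS3 and the second ELOVL4, with 20 counts or fewer in each library, are limited by depth.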
